A study of Mus musculus with 10 samples.

Results

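Germ cells of the fetal mouse ovary labelled Taf4b-deficient were compared with germ cells of both fertile genotypes, and in 283 of 20317 tested genes (1.39%) the 4 deficient values all lay outside the range of the 6 fertile values. These genes were chosen by that rule on their scaled counts. Of these, 172 lay higher (0.847% of tested genes) and 111 lower (0.546%) in the deficient libraries. Bulk RNA was sequenced from 10 libraries of C57BL/6 female germ cells at E14.5 (embryonic days): 4 Taf4b-deficient, which the labels call infertile, and 4 Taf4b-heterozygous and 2 Taf4b-wildtype, which they call fertile. Every group also carried an Oct4-EGFP reporter (the Pou5f1tm2Jae allele), since the parents were homozygous for it and heterozygous for the Taf4b mutation. GFP-positive, propidium iodide-negative cells were sorted from trypsinised gonads into Trizol. The labels do not say which part of Taf4b the mutation removes, how many fetuses a library holds, or whether libraries came from separate animals, so the spread on which p-values rest is that between libraries and may be technical. The labels also give each library 1 of 3 litter dates, and every date holds deficient and fertile libraries. Genes that do not overlap between the groups cannot overlap within a date either, which follows from the rule and is no test of litter date.

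TFIID is the general transcription factor that recognises core promoters and places RNA polymerase II there, and TAF4 is one of its scaffold subunits. TAF4b is a paralogue of TAF4 that is enriched in ovary and testis, and female mice without it are infertile and lose oocytes around birth. Female germ cells leave mitosis and enter meiotic prophase at about the age sampled here. The comparison asks which transcripts depend on genotype at that time, before the oocytes are lost.

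Levels are read counts relative to the library's total (CPM), scaled by the trimmed mean of M-values (TMM). The gap of a gene is the log2 distance between the deficient and the fertile library that lie nearest each other. Library totals ran from 28949924 to 44166320 reads. Dazl, an RNA-binding protein of germ cells, stood at 2543 ± 198 CPM (SD, n = 4) in deficient and 2493 ± 158 CPM (SD, n = 6) in fertile libraries, and the summed level of 12 germ cell identity markers ran from 6271 to 6786 CPM and from 5895 to 6461 CPM. A stage score (meiotic axis and recombination genes minus pluripotency genes, mean log2 CPM) stood at 0.20 ± 0.87 in deficient (SD, n = 4) and 0.73 ± 1.08 in fertile libraries (SD, n = 6), a difference of -0.53 (two-sided exact permutation p = 0.424, where 210 arrangements allow no p under 0.00476). The score of heterozygous replicate 1 was -1.03, against 1.41 to 1.87 in the other heterozygous libraries. The non-coding gene Gm23935, which resembles ribosomal RNA, ran from 87.4 to 454 CPM in 3 libraries (deficient 2 and 4, heterozygous 3) and from 4146 to 5068 CPM in the other 7.

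The promoters of 5 genes are shown because these genes open the 2 directions or share a start region, and TFIID acts at such sequences. They are RefSeq sequences of GRCm38.p6, 5′ to 3′ on the strand of the gene, ending at the base before its RefSeq start and cut short where an annotated exon of a neighbour begins. Ddc and Dus4l were higher in deficient libraries, as was Surf1, while Aars2 and Col4a4 were lower. Capitals mark matches to any of the motifs searched on both strands, which were the GC box (GGGCGG), the CCAAT box (CCAAT), the TATA box (TATAAA), an ETS motif (CCGGAAGT) and a CRE (TGACGTCA). The Ddc stretch is chr11:11898145-11898394 (minus strand), that of Aars2 chr17:45506591-45506840 (plus strand), that of Dus4l chr12:31654827-31654868 (minus strand), that of Surf1 chr2:26916531-26916668 (minus strand), and that of Col4a4 chr1:82586850-82586920 (minus strand).
Ddc: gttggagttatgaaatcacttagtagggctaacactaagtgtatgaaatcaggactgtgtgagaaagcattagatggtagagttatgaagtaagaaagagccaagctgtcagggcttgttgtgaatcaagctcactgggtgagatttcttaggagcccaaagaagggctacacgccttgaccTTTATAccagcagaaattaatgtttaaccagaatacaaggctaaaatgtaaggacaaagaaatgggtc
Aars2: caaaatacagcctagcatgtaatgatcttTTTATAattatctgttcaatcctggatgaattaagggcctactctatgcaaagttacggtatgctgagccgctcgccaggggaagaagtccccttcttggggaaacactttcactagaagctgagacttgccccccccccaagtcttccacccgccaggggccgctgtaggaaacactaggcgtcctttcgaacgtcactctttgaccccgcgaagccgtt
Dus4l: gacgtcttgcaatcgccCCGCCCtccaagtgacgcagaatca
Surf1: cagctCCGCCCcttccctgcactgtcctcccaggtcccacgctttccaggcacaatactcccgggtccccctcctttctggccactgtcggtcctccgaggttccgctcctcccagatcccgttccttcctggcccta
Col4a4: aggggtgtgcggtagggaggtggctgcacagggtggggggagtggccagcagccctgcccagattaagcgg
Ddc and Aars2 each hold a match to TATAAA and no GC box. That match reads TTTATA in both, so TATAAA lies on the strand opposite the gene. Dus4l and Surf1 each hold a GC box and no TATA box in the stretch shown. The Col4a4 stretch is the 71 bases that separate its start from that of Col4a3 on the other strand, and none of the 5 motifs was found there.

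Across the 250 bases before the start, 109 of the 172 higher and 53 of the 111 lower genes had a RefSeq promoter entry. A GC box was present in 62.4% of the higher and 64.2% of the lower genes, against 56.7% of the 12631 tested genes with an entry. The CCAAT box was present in 35.8% of both directions against 36.5% of all. The letters TATAAA were found before 14 higher genes (12.8%) and 4 lower genes (7.55%), against 6.61% of all. The ETS motif stood in 5.5% of higher and 1.89% of lower genes against 5.61%, and the CRE in 1.83% and 1.89% against 2.54%. These shares describe letters in a window and are no measure of factor binding. Matches were counted on either strand and at any distance from the start, so a match to TATAAA need not be a TATA box.

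Taf4b was the gene with the widest gap among those of at least 5 CPM. It was read at 56.1, 62.1, 64.9 and 60.1 CPM in deficient replicates 1 to 4, and from 144 to 234 CPM (median 201) in the fertile libraries. The groups did not overlap, and the lowest fertile library lay far above all 4 deficient ones. The log2 fold change was -1.64 (SE 0.16, adjusted p = 0.0117 by edgeR's quasi-likelihood test, n = 4, 4 and 2), so that the deficient mean was 31.5% of the fertile mean. It was the only gene of 20317 called at an adjusted p under 0.05 (0.00492%), and 875 genes (4.31%) had an unadjusted p under 0.05. The call was lost when litter date (adjusted p = 0.066) or the level of Gm23935 (adjusted p = 0.0506) was added to the model, with log2 fold changes of -1.64 in both, without any 1 of the 4 deficient libraries (adjusted p from 0.059 to 0.125, log2 fold changes from -1.66 to -1.60), and without wildtype replicate 2 (adjusted p = 0.0752, log2 fold change -1.50). DESeq2 called 8 genes in the same 3-group design, which were Taf4b, Aars2, Ddc, Itfg2, Sp3os, Gm11633, Gm49450 and Gm8226. The authors' deposited table gives an adjusted p under 0.05 to 3 genes: Taf4b (log2 fold change -1.66, adjusted p = 1.251e-13), Ddc (0.69, 0.00177) and Sp3os (0.50, 0.02359).

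**Figure D1:**
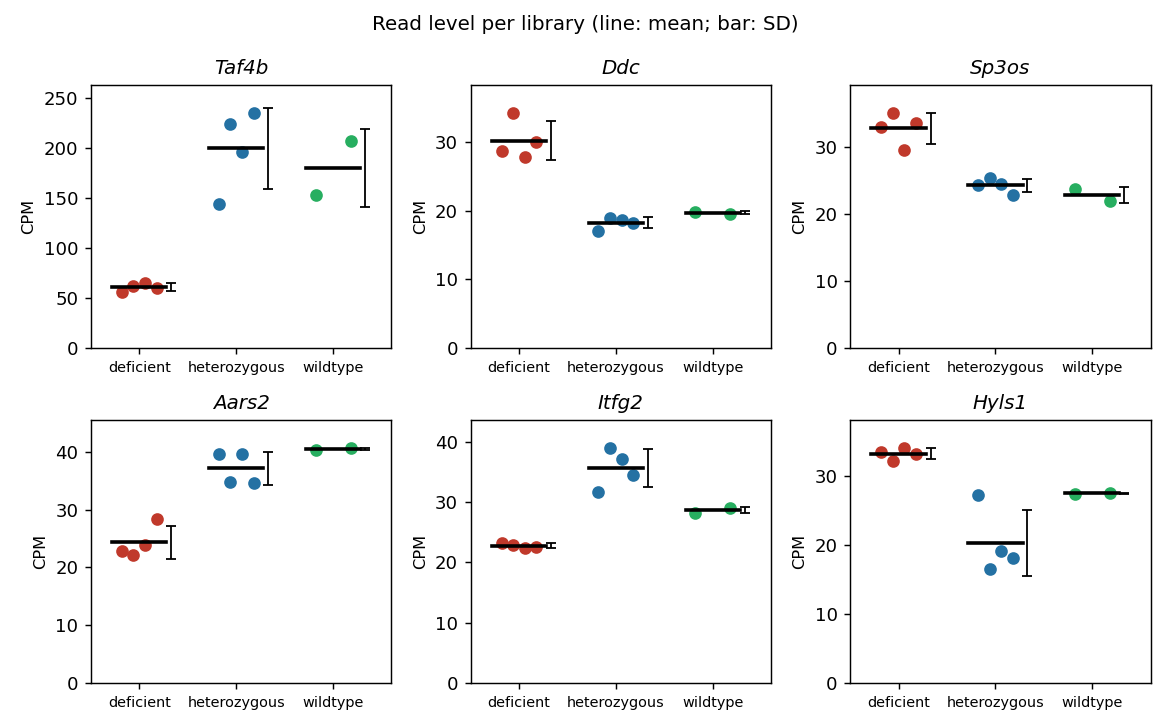
Read level (CPM) of 6 genes in each library, by genotype, where points are libraries, lines are group means and bars are SD. The 4 deficient points lie outside the fertile points in every panel, above them for Ddc, Sp3os and Hyls1 and below them for Taf4b, Aars2 and Itfg2.

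All 283 genes were chosen for the separation of their values, so their levels and fold changes below are a description with no test. Besides Taf4b, each of them had an adjusted p of 0.904 by edgeR. The 2 directions differed in read level, which is not a level per length. The mean over the 10 libraries had a median of 22.6 CPM for the higher genes, 1.13 CPM for the lower genes and 7.21 CPM for all tested genes. Of the higher genes, 113 reached 5 CPM and 33 lay under 1 CPM, whereas 40 of the lower genes reached 5 CPM and 50 lay under 1 CPM. The median log2 fold change was 0.35 for the higher genes and -0.84 for the lower genes, beside -0.01 over all genes tested.

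Gene types differed as well. Protein-coding genes made up 139 of the 172 higher genes (80.8%) and 65 of the 111 lower genes (58.6%), against 73.1% of all tested genes. Pseudogenes made up 12.8%, 15.3% and 10.3% in the same order. Unproven transcribed regions of the annotation (the class TEC) made up 14.4% of the lower genes, 0.581% of the higher genes and 4.53% of all. Among protein-coding genes the exonic length had a median of 2881 bases in the higher, 5149 bases in the lower and 4309 bases in all tested genes. The longest transcript by exon number had a median of 7, 12 and 9 exons.

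Most gaps were narrow. The median gap of the higher genes was 0.05, and a gap of at least 0.25 was found in 10 higher and 17 lower genes. Which fertile library lay nearest the deficient range was uneven. It was wildtype replicate 1 for 53 of the 172 higher and 42 of the 111 lower genes, heterozygous replicate 1 for 42 and 22, and heterozygous replicate 4 for 7 and 6. Genes just inside the rule with at least 5 CPM included Utp11 and Phf20 among the higher and Cep128 and Nfyc among the lower. Phf20, for example, lay at 145.2 CPM in its highest fertile and 145.4 CPM in its lowest deficient library. Just outside it were Tefm, Zwilch, Fbxo2 and Plekha1, whose groups overlapped by at most 0.002 in log2. Genes on either side of the rule therefore differ little from each other.

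Scaling and the second deposited measure changed which genes stood apart. Of the 283 genes, 270 were also separated with DESeq2 size factors, 235 with upper quartile scaling and 211 with library totals alone, and 186 (65.7%) with all of these. In the deposited TPM values 296 of the tested genes (1.46%) were non-overlapping, 171 higher (0.842%) and 125 lower (0.615%). These included 108 of the 283 genes (38.2%), and none of the 283 was separated in the opposite direction. A core of 95 genes (53 higher, 42 lower) was separated under every scaling and in TPM, and 40 of them (27 higher, 13 lower) reached 5 CPM. Ddc, Hyls1, Dus4l, Surf1, Tmsb4x, Taf4b, Aars2, Kctd17, Zfp326 and Gen1 belonged to these 40.

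Ddc led the higher genes of at least 5 CPM. It encodes dopa decarboxylase, which makes dopamine and serotonin, lies at chromosome 11, 11814101 to 11898144, minus strand of GRCm38 and shares an imprinted neighbourhood with Grb10. Its level was 28.7, 34.2, 27.8 and 30.03 CPM across the deficient libraries, and from 17.1 to 19.9 CPM (median 18.8) in the fertile ones. The highest fertile library and the lowest deficient library were separated by 0.48 in log2, and the fertile values lay close together. The log2 fold change was 0.67 (SE 0.12), a fold of 1.59. The deposited TPM values (a measure per transcript length) averaged 49.9 in deficient and 32.4 in fertile libraries. Of 46 tested imprinted genes Ddc alone was non-overlapping, beside 1.39% of all tested genes. The median log2 fold change of the imprinted list was 0.03.

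Sp3os, an RNA read from the strand opposite the transcription factor gene Sp3, stood at 33.1, 35.1, 29.6 and 33.7 CPM in deficient and from 22.01 to 25.4 CPM (median 24.01) in the fertile ones. The groups were apart by 0.22 in log2, with a log2 fold change of 0.48 (SE 0.12). Its TPM values did overlap, at means of 123 and 95.8. Its exons overlap those of Sp3, and reads of the partners cannot be told apart where strand was not used in counting, which the sources used here do not state. Hyls1, a centriole protein needed for cilia, stood at 33.5, 32.1, 34.03 and 33.2 CPM against fertile values from 16.5 to 27.5 CPM (median 23.2). The deficient values of Hyls1 were within 2 CPM of each other, while the fertile ones fell into a lower set of 3 heterozygous libraries and a higher set of heterozygous replicate 1 and both wildtype libraries. The level of Hyls1 also changed with the stage score among libraries of the same genotype (adjusted p = 0.0393 by edgeR), as did that of 24.3% of all tested genes. Exons of Pus3 and Pate2 overlap it on the other strand.

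Among the other leading higher genes, Dus4l, a tRNA dihydrouridine synthase, stood at 14.3, 14.7, 16.9 and 14.4 CPM against fertile values from 7.88 to 12.3 CPM (median 10.2). The fold change was 0.51 in log2, and the groups were separated in TPM too. Snx6, a sorting nexin of the retromer, stood at 153, 161, 159 and 191 CPM against fertile values from 108 to 138 CPM (median 136). Deficient replicate 4 was the highest and heterozygous replicates 2 and 4 were the lowest, and TPM values overlapped. Tmsb4x, the X-linked gene of the actin-binding peptide thymosin beta-4, stood at 26.7, 21.8, 25.03 and 24.9 CPM against fertile values from 10.7 to 19.3 CPM (median 15.1). This was a log2 fold change of 0.68 with a gap of 0.17. Srp54b, a copy of the signal recognition particle subunit SRP54, had the highest log2 fold change of the named higher genes of at least 5 CPM (1.20), at 18.5, 33.2, 23.7 and 22.8 CPM against fertile values from 4.26 to 16.01 CPM (median 11.3). It is 1 of a set of near-identical paralogues (Srp54a and Srp54c being the others), between which the counting can split reads, so its level is uncertain. Its TPM values overlapped, at means of 53.5 and 49.8, and the log2 fold change on TPM with a pseudocount of 1 was 0.14.

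Of the other genes among the leading 15, Nt5dc1, Tmem53, Hypk, Nek3, Chmp1b and Spint2 had log2 fold changes of 0.33, 0.50, 0.56, 0.28, 0.33 and 0.25. Nek3 is a kinase of the NIMA family, Chmp1b a subunit of the membrane-cutting ESCRT-III complex and Spint2 an inhibitor of serine proteases. Spint2, the gene with the narrowest gap of these, stood at 145, 154, 143 and 143 CPM against fertile values from 101 to 132 CPM (median 128). Hypk shares exons with Serf2 on the same strand, so its reads cannot be assigned to it alone.

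**Figure D2:**
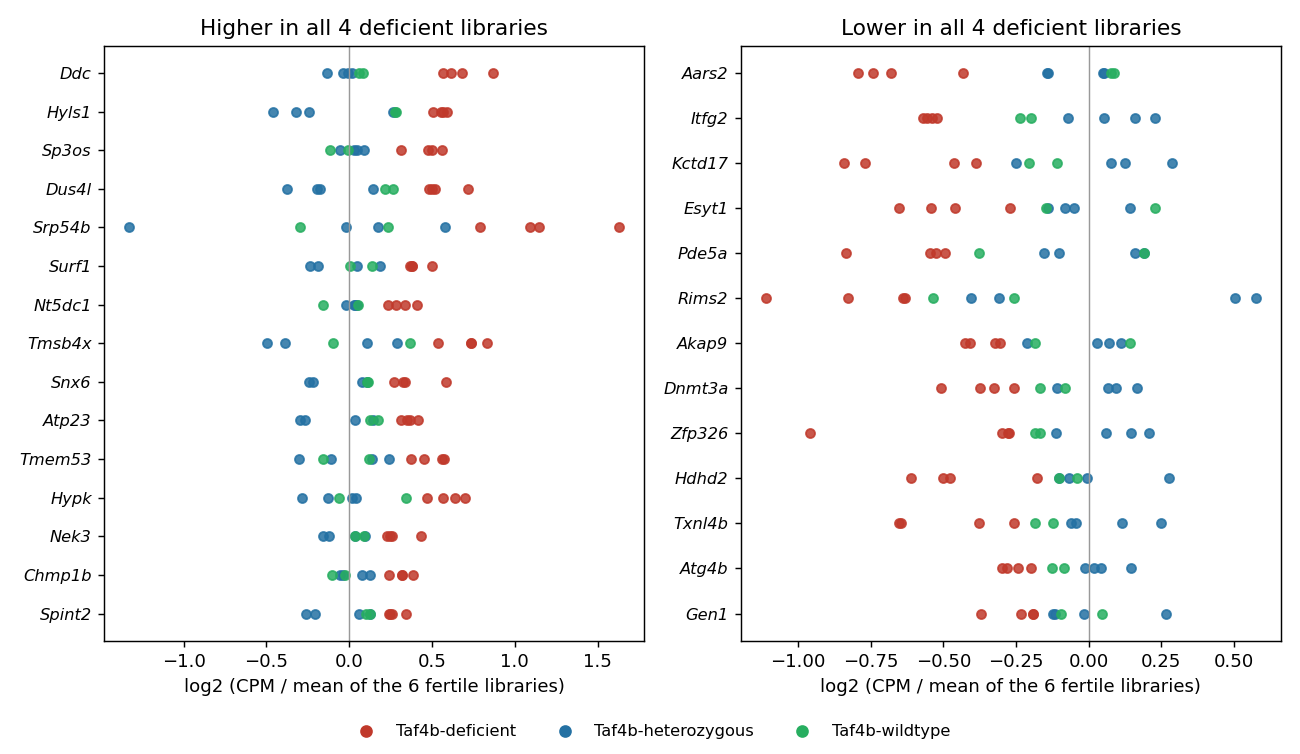
Level of the named genes with the widest gap and a mean of at least 5 CPM in each library, as log2 of CPM over the mean of the 6 fertile libraries (x axis), for 15 higher genes (left) and 13 lower genes besides Taf4b (right). Each point is a library coloured by genotype, and in every row the 4 deficient points lie on one side of all fertile points, with the widest space in Ddc on the left and Aars2 on the right.

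Genes of mitochondria were found in both directions. Surf1, an assembly factor of cytochrome c oxidase, stood at 22.5, 22.5, 24.5 and 22.3 CPM across the deficient libraries against fertile values from 14.7 to 19.7 CPM (median 17.6). Atp23, a protease that also helps assemble ATP synthase, stood at 30.04, 32.3, 30.8 and 31.2 CPM against fertile values from 19.7 to 27.3 CPM (median 25.7). Both were separated in TPM as well, with log2 fold changes of 0.39 and 0.33. Of the 80 tested mitochondrial ribosomal proteins, 5 lay higher and none lower, beside 0.847% of all tested genes higher and 0.546% lower. The 5 were Mrpl36, Mrpl39, Mrpl44, Mrps23 and Mrps9. Mrpl39 stood at 94.4, 94.7, 108 and 92.9 CPM against fertile values from 66.8 to 88.6 CPM (median 80.3), and Mrps23 at 31.4, 34.9, 30.5 and 29.9 CPM against fertile values from 24.9 to 28.8 CPM (median 27.4). In TPM the groups overlapped for Mrpl39, Mrps23 and Mrps9, and for Mrps23 they also overlapped with library totals alone. The log2 fold change was above 0 for 74 of the 80 with a median of 0.16, against 48.4% of all tested genes. None of the 80 was called by edgeR or DESeq2, and 8 had an unadjusted p under 0.05 by edgeR, beside 4.31% of all tested genes. Their summed level ran from 7731 to 8523 CPM in deficient and from 6375 to 7944 CPM in fertile libraries, which overlap. None of 74 nuclear-encoded respiratory chain subunits and none of 15 mitochondrially encoded genes was non-overlapping. Respiratory chain subunits had a median log2 fold change of 0.11, with 65 of 74 above 0. Mitochondrially encoded genes had one of -0.07, with 5 of 15 above 0.

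Further members with a mitochondrial role were picked out after their values were seen. They were Uqcc3 and Tmem223, which help assemble respiratory complexes, Mtrf1l, a release factor of mitochondrial translation, Ucp2, an uncoupling protein, and Bola1. All 5 lay higher, with log2 fold changes of 0.36, 0.37, 0.29, 0.32 and 0.16. Their shared direction is in part set by how they were picked and is no test of mitochondrial genes. Uqcc3 stood at 26.04, 25.1, 25.5 and 24.4 CPM against fertile values from 14.54 to 22.6 CPM (median 19.8).

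Aars2 went the other way and led the lower genes of at least 5 CPM after Taf4b, by gap. It encodes the mitochondrial alanyl-tRNA synthetase, whose mutations in people can cause leukodystrophy with ovarian failure, and lies at chromosome 17, 45506841 to 45520843, plus strand of GRCm38. Its level was 22.9, 22.1, 23.9 and 28.4 CPM in deficient, and from 34.7 to 40.7 CPM (median 39.7) in the fertile ones. Deficient replicate 4 was the highest of the deficient libraries and still lay 0.29 in log2 under the lowest fertile library. The log2 fold change was -0.67 (SE 0.13), and the TPM means were 14.04 and 22.8. Aars2 was the 1 non-overlapping gene of 19 tested mitochondrial tRNA synthetases, whose median log2 fold change was 0.002. Of 47 tested genes tied to premature ovarian insufficiency, Aars2 and Taf4b were the non-overlapping ones, beside 1.39% of all tested genes. Taf4b is the mutated gene itself, so Aars2 alone is left, and a link of that list to genotype was not tested.

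Itfg2, a subunit of the KICSTOR complex that restrains mTORC1, stood at 23.2, 22.9, 22.4 and 22.6 CPM across the deficient libraries and from 28.3 to 39.01 CPM (median 33.2) in the fertile ones. Its deficient values were within 1 CPM of each other, its log2 fold change was -0.49 (SE 0.12), and its TPM values overlapped. Exons of Nrip2 overlap it on the other strand. Kctd17, a substrate adaptor of cullin-3 ubiquitin ligases, stood at 11.8, 12.4, 9.53 and 9.06 CPM against fertile values from 13.7 to 19.8 CPM (median 16.1). Deficient replicates spread widely for Kctd17, yet CPM and TPM were both separated. Its log2 fold change was -0.56.

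Among the other leading lower genes, Esyt1, a tether between the endoplasmic reticulum and the plasma membrane, stood at 15.9, 13.9, 15.01 and 18.1 CPM against fertile values from 19.7 to 25.6 CPM (median 20.9). Pde5a, the phosphodiesterase that breaks down cGMP, stood at 4.53, 4.38, 4.43 and 3.58 CPM against fertile values from 4.92 to 7.29 CPM (median 6.54). These genes had log2 fold changes of -0.49 and -0.58, and in each the nearest libraries of the groups were closer than the spread within the groups. Rims2, a scaffold of synaptic vesicle release, stood at 10.9, 10.9, 9.53 and 7.82 CPM against fertile values from 11.7 to 25.2 CPM (median 13.9). Its fertile values were the most scattered of the leading lower genes, over a more than 2-fold range. Akap9, which anchors protein kinase A at the centrosome and Golgi, had a log2 fold change of -0.36. Atg4b, an autophagy protease, stood at 144, 147, 142 and 152 CPM against fertile values from 159.8 to 193 CPM (median 175). It was separated by 0.07 in log2, in TPM as well. Txnl4b and Hdhd2 had log2 fold changes of -0.43 and -0.41, of which the last shares exons with another annotated entry of the same symbol.

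Lists of epigenetic reprogramming and DNA damage genes are read beside the 1.39% of all tested genes that were non-overlapping. Dnmt3a, the de novo DNA methyltransferase, was the 1 non-overlapping gene of 56 tested epigenetic reprogramming genes. It stood at 79.5, 69.99, 76.9 and 83.4 CPM in deficient against fertile values from 88.7 to 112 CPM (median 99.3). The log2 fold change was -0.33, TPM values overlapped, and the antisense gene Dnmt3aos shares its exons. Gen1, a nuclease that cuts Holliday junctions, was the 1 of 58 Fanconi and DNA damage genes, at 32.8, 28.9, 32.8 and 31.9 CPM against fertile values from 34.4 to 44.95 CPM (median 35.99). It was separated in TPM too, with a log2 fold change of -0.24. Zfp326, a zinc finger protein of the complex that couples transcription elongation to splicing, stood at 45.4, 46.2, 46.02 and 28.7 CPM against fertile values from 49.1 to 64.5 CPM (median 54.9). Deficient replicate 4 lay far below the other deficient libraries there.

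The transcription machinery was covered by 3 lists, to be read beside the 1.39% of all tested genes that were non-overlapping. Of 22 tested TFIID subunits and TBP relatives, Taf4b alone was non-overlapping, and the median log2 fold change of the list was 0.07. Med30, a Mediator subunit, was the 1 of 59 general transcription and Mediator genes, at 54.5, 57.2, 57.8 and 56.1 CPM against fertile values from 41.9 to 52.1 CPM (median 49.2). The list's median was 0.10. Nfyc, a subunit of the CCAAT-binding factor NF-Y, was the 1 of 21 Sp, KLF and NF-Y factors, at 96.5, 102, 108 and 111 CPM against fertile values from 111 to 132 CPM (median 116). Its log2 fold change was -0.19 and the list's median 0.01. The groups overlapped for Nfyc with DESeq2 size factors, with upper quartile scaling and in TPM.

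Lists of germ cell genes are read against the same 1.39%, and the rule takes few genes that vary with stage among the fertile libraries. None of 24 meiotic initiation genes, 25 chromosome axis and synapsis genes, 37 recombination genes and 36 RNA regulation and piRNA genes was non-overlapping. Their median log2 fold changes were 0.01, -0.20, -0.24 and -0.03. Among 48 pluripotency and early germ cell genes, whose median was 0.27, the 1 non-overlapping gene was Lefty1, an inhibitor of Nodal signalling. Lefty1 was scarce, at 0.346, 0.262, 0.230 and 0.451 CPM in the deficient and from 0.546 to 1.72 CPM (median 1.096) in the fertile libraries. Its log2 fold change was -1.76 and its TPM values overlapped. It is named although its mean is under 1 CPM, as a gene chosen after its values were seen. Over all 36 lists, 23 of 1232 tested genes were non-overlapping (1.87%).

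Lists of cell division and protein turnover gave single genes, all higher, to be read beside the 1.39% of all tested genes that were non-overlapping. Ccnb2, a cyclin of mitotic entry, was the 1 of 59 G2 and M phase genes, at 507, 513, 552 and 560.4 CPM against fertile values from 267 to 477 CPM (median 441). It was separated in TPM, with a log2 fold change of 0.38. Pole2 was the 1 of 52 DNA replication genes, Psme3 the 1 of 47 proteasome genes, Sf3b5 the 1 of 71 splicing genes and Psph, an enzyme of serine synthesis, the 1 of 27 stress response genes. Their log2 fold changes were 0.21, 0.14, 0.32 and 0.35. In TPM the groups overlapped for Pole2, Psme3 and Psph. They also overlapped with library totals alone for Pole2 and Psme3, and with upper quartile scaling for Sf3b5. No non-overlapping gene was found among 37 apoptosis genes, 35 immediate-early genes, 23 glycolysis genes, 27 cholesterol genes, 35 cyclin and G1 genes, 39 cullin ligase genes and 59 chromatin remodelling genes. Of the 47 proteasome genes, 43 had a log2 fold change above 0, with a median of 0.20. An unadjusted p under 0.05 by edgeR was found for 6 of these 47, beside 4.31% of all tested genes. Over all tested genes the share above 0 was 48.4%.

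Some further genes among the 40 that were separated under every scaling and in TPM are described here, chosen after their values were seen. Sin3b, a scaffold of histone deacetylase complexes, stood at 479.6, 490.4, 536 and 465 CPM against fertile values from 338 to 445 CPM (median 378). Its log2 fold change was 0.32. Ift20, an intraflagellar transport protein, and Gsta4, a glutathione transferase, had log2 fold changes of 0.30 and 0.48. On the lower side, Ttc26, another intraflagellar transport protein, stood at 8.69, 8.99, 6.504 and 9.197 CPM against fertile values from 9.27 to 20.8 CPM (median 11.7). Its log2 fold change of -0.61 was opposite in sign to that of Ift20. Smg9, a factor of nonsense-mediated decay, stood at 25.9, 24.9, 21.9 and 24.7 CPM against fertile values from 27.1 to 46.2 CPM (median 30.02), and Cherp, a nuclear RNA-processing protein, at 157, 144, 149.9 and 151 CPM against fertile values from 164 to 269 CPM (median 194). Both had smaller differences, with log2 fold changes of -0.38 and -0.36.

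Lower genes with few reads had the widest relative differences. A fold of at least 2 was reached by 47 of the 111 lower (42.3%) and 24 of the 172 higher genes (14.0%), against 3.58% of all tested genes. Genes with few reads scatter widely and are separated only by a wide difference, so these shares are in part set by the rule. Pgf, a placental growth factor of the VEGF family, stood at 0.535, 0.918, 0.657 and 0.716 CPM in deficient and from 1.14 to 1.72 CPM (median 1.42) in fertile libraries. Grik4, a kainate receptor subunit, stood at 0.8501, 0.786, 0.0986 and 0.769 CPM against fertile values from 1.01 to 1.85 CPM (median 1.104). Deficient replicate 3 lay far below the other deficient libraries for Grik4. Both genes were separated in TPM, and both were picked with their values in view.

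Genes of ribosome production recurred among the higher genes, and a list of 97 such genes was therefore drawn up after the members had been seen. It held 8 of the higher genes and none of the lower, which is in part set by how it was drawn up. Over all tested genes 0.847% lay higher. The 8 were Ccdc86, Dcaf13, Dnttip2, Nop14, Polr1c, Rrp36, Rsl1d1 and Utp11. Nop14 and Dcaf13 act in small subunit assembly, and Polr1c is a subunit shared by RNA polymerases I and III. Nop14 stood at 135, 138, 142 and 145 CPM in the deficient and from 78.2 to 132 CPM (median 112) in the fertile libraries, and Rsl1d1 at 394, 409, 469.9 and 411 CPM and from 283 to 389.6 CPM (median 335). Both were separated in TPM, whereas the groups overlapped in TPM for the other 6. Dnttip2 stayed separated under 1 of the 3 other scalings. Over the list the log2 fold change was above 0 for 87 of 97 genes, against 48.4% of all tested genes. The median of the list was 0.22, and 0.13 once the stage score was a term of the model. The level of 48 of the 97 changed with the stage score at an adjusted p under 0.05 by edgeR, beside 24.3% of all tested genes. The summed level ran from 16303 to 19853 CPM in deficient and from 12482 to 17208 CPM in fertile libraries, which overlap. How far stage contributes to these differences was not tested further.

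The cytosolic chaperonin TRiC, which folds actin and tubulin, gave a second such list. Cct5 and Cct8 lay higher among its 8 tested subunits, beside 0.847% of all tested genes. Cct8 stood at 1954, 2027, 2004 and 1981 CPM against fertile values from 1304 to 1932 CPM (median 1709), and Cct5 at 1188, 1253, 1309 and 1244 CPM against fertile values from 781 to 1152 CPM (median 1108). Both overlapped in TPM and under 1 of the 3 other scalings, that by library totals alone. All 8 subunits had a log2 fold change above 0, with a median of 0.17, and their summed level ran from 10718 to 11513 CPM in deficient and from 7880 to 10763 CPM in fertile libraries, which overlap. Rpap3 and Dnajc2, cochaperones that were also picked out after their values were seen, had log2 fold changes of 0.44 and 0.35 and were separated in TPM.

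Genes of macrophages were read at low levels. All 21 tested macrophage and blood cell markers had a log2 fold change above 0, with a median of 0.86. Over all tested genes the share above 0 was 48.4%. Of the 21 markers, 4 were non-overlapping, all higher, beside 0.847% of all tested genes: Adgre1, C1qc, Ctss and Laptm5. None of the 21 was called by edgeR, and 7 had an unadjusted p under 0.05, beside 4.31% of all tested genes. DESeq2 with the fertile libraries as 1 group called C1qc. The fit gives the heterozygous and wildtype means equal weight. As plain means over libraries, Fcgr3 (2.51 CPM in deficient and 2.72 CPM in fertile libraries) and Mrc1 (0.605 and 0.631 CPM) lay lower in the deficient group. Ctss, the lysosomal protease cathepsin S, stood at 2.64, 2.097, 1.22 and 1.48 CPM across the deficient libraries, and from 0.116 to 0.892 CPM (median 0.6296) in the fertile ones. C1qc, a chain of complement C1q, stood at 2.802, 2.23, 2.23 and 1.35 CPM against fertile values from 0.524 to 1.26 CPM (median 0.849). Adgre1, which encodes the macrophage surface protein F4/80, stood at 1.70, 1.28, 1.08 and 1.35 CPM against fertile values from 0.198 to 0.812 CPM (median 0.584), and Laptm5 at 3.72, 3.15, 2.201 and 2.12 CPM against fertile values from 0.611 to 1.95 CPM (median 1.35). In each the lowest deficient library lay above the highest fertile one, at levels near 1 CPM. The summed level of the 21 markers ran from 28.4 to 47.4 CPM in the deficient and from 15.1 to 29.9 CPM in the fertile libraries. Fcgr1, at 0 CPM in heterozygous replicate 4, was the 1 marker not detected in every library. In bulk samples, more or fewer cells of a type cannot be told apart from more or less RNA per cell. The part of such cells in the other differences was not tested.

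A further 8 higher genes, Arhgdib, Cyth4, Entpd1, Lair1, Lyn, Rgs1, Srgn and Trem2, are known from leukocytes and were listed with other such genes after the members had been seen. Of the 40 tested genes of that list, these 8 lay higher and none lower, beside 0.847% and 0.546% of all tested genes. A log2 fold change above 0 was found for 27 of the 40, with a median of 0.38 and a range from -0.57 to 2.28. The share above 0 over all tested genes was 48.4%. Both counts of the list are in part set by how it was drawn up. Its summed level ran from 145 to 290 CPM in deficient and from 127 to 246 CPM in fertile libraries, which overlap. Cyth4, a guanine exchange factor of blood cells, had the widest gap of all higher genes (0.51 in log2), at 1.76, 1.21, 1.28 and 1.405 CPM against fertile values from 0.291 to 0.832 CPM (median 0.702), though its TPM values overlapped. Srgn, the proteoglycan of blood cell granules, stood at 3.02, 2.78, 3.06 and 2.68 CPM against fertile values from 1.22 to 2.15 CPM (median 1.63). Markers of other cell types were read in the same way. None of 18 pregranulosa, 13 stromal, 12 endothelial and 8 erythroid markers was non-overlapping, and their summed levels ran from 53.5 to 84.1, 53.3 to 101, 112 to 414 and 1.05 to 16.2 CPM in deficient against 41.5 to 86.3, 61.9 to 76.9, 90.7 to 418 and 1.61 to 16.6 CPM in fertile libraries. All 8 erythroid markers had a log2 fold change below 0, with a median of -0.72. Of these 8, 1 had an unadjusted p under 0.05 by edgeR, beside 4.31% of all tested genes. DESeq2 with the fertile libraries as 1 group called the globin gene Hbb-y, which was at 0 CPM in all 4 deficient libraries and in 4 of the 6 fertile ones.

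**Figure D3:**
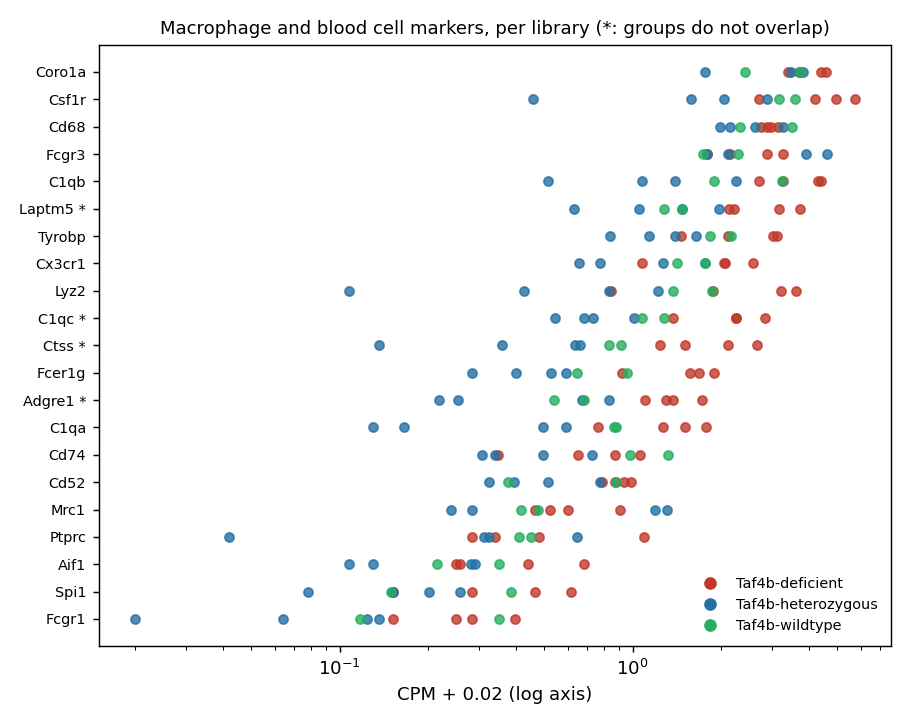
Level of 21 macrophage and blood cell markers in each library (CPM + 0.02, log axis), with 1 row per gene and points coloured by genotype. An asterisk marks the 4 genes whose deficient and fertile values do not overlap, and most other markers also have their highest points in deficient libraries, at levels of a few CPM or less.

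Few of the 283 genes varied with meiotic stage among libraries of the same genotype. The slope on the stage score was called for 6 of them (2.12%), against 4947 of all tested genes (24.3%). The choice itself favours a narrow spread within the fertile group, so this lower share is in part set by it. The 6 were Hyls1, Laptm5, Pdcd6, Naa10, Bloc1s1 and A430110C17Rik. With the stage score as a term, all 283 fold changes kept their sign, as did 86.4% of those of all tested genes, and the medians moved from 0.35 to 0.33 for higher and from -0.84 to -0.83 for lower genes. Ddc moved from 0.67 to 0.70 and Aars2 from -0.67 to -0.70. With the level of Gm23935 as a term all 283 signs were again kept, as were those of 17264 of the 20317 tested genes, and the median of the higher genes was 0.32. That the signs were kept is largely fixed by the choice of separated genes.

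**Figure D4:**
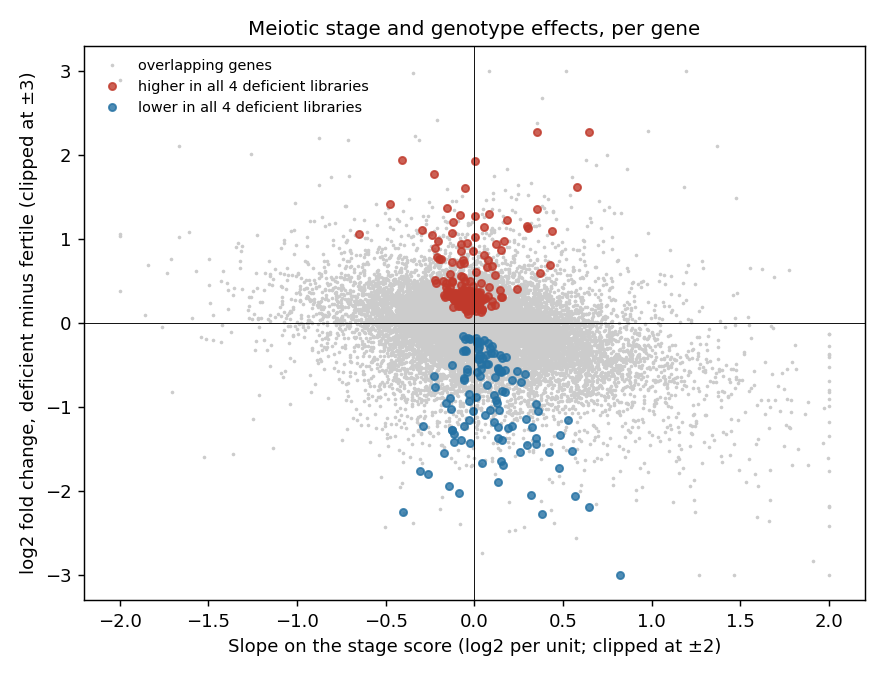
Slope on the stage score (log2 per unit of score, x axis, clipped at ±2) against the log2 fold change of deficient minus fertile libraries (y axis, clipped at ±3) for 20317 tested genes. The 172 higher and 111 lower genes have slopes from -0.65 to 0.82, with a median absolute slope of 0.08 against 0.18 over all tested genes.

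The fertile genotypes were also compared with each other. The comparison of heterozygous with wildtype libraries called 1 gene of all tested (0.00492%) and none of the 283. An unadjusted p under 0.05 was found for 8 of the 283 (2.83%), against 1685 of all tested genes (8.29%). This contrast uses the same fertile libraries that set the range, so the lower share is in part fixed by the choice. For Ddc the heterozygous and wildtype means were 18.3 and 19.7 CPM, and for Aars2 37.2 and 40.5 CPM.

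Chromosome 18, which carries Taf4b, held 11 of the 283 genes (5 higher, 6 lower) among 484 tested (2.27%). Taf4b is 1 of these 11, and without it the share was 2.07% of 483. Over all tested genes it was 1.39%, on chromosome 12 it was 2.03%, and the X chromosome held 12 among 803 (1.49%). None of the 11 other tested genes within 1 Mb of Taf4b was non-overlapping. The nearest were the pseudogene Gm2531 (lower, 4.64 Mb away) and Usp14, a proteasome-bound deubiquitinase (higher, 4.74 Mb away). Another non-overlapping gene started within 100 kb for 28 of the 283 genes (9.89%), and such a gene started within that distance for 5.79% of all tested genes. These formed 14 pairs, 11 of them in the same direction.

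Closest was the pair Col4a3 and Col4a4, type IV collagen chains of basement membranes that are read in opposite directions from starts 72 bases apart, around the stretch printed above. Col4a3 stood at 0.252, 0.288, 0.230 and 0.0795 CPM in the deficient and from 0.3203 to 0.728 CPM (median 0.591) in the fertile libraries. Col4a4 stood at 0.315, 0.0524, 0.197 and 0.265 CPM and from 0.429 to 0.705 CPM (median 0.554). Both were lower, with log2 fold changes of -1.44 and -1.43, at levels under 1 CPM in every library. Other same-direction pairs were Cfl2 with Snx6, Acot9 with Prdx4, Rrp36 with 2310039H08Rik and Acy3 with Nudt8, all higher. Mettl5 and Ssb, also both higher, share exonic sequence, so their reads may not be independent. Dcaf13 (higher) and Rims2 (lower) started 85.4 kb apart and went in opposite directions.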

How the data were processed

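The submitters' processing notes name Trim Galore (0.5.0) for trimming, FastQC (0.11.5), HISAT2 (2.1.0) for alignment against GRCm38 and SAMtools (1.9). The deposited count per gene was made by featureCounts in Subread 1.6.2, and StringTie 1.3.3b gave the deposited TPM, per those notes. Neither strand settings nor the annotation release, nor the version and contrast behind the DESeq2 output, were given in the sources used here. Columns of that output are, per the file headers, a size-factor-scaled mean count (a signal), the log2 fold change and its error, a test statistic (a score), and raw and adjusted p-values, all by the authors.

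All 55536 genes were matched by identifier to GENCODE M21. The filterByExpr filter left 20317 genes, which were scaled by TMM and fitted in edgeR 4.0.16 (R 4.3.3) with a quasi-likelihood model of 3 genotype groups. Deficient was set against the equally weighted mean of heterozygous and wildtype, with Benjamini-Hochberg adjustment over all tested genes and a threshold of 0.05. The fit was checked on simulated counts. CPM gaps and log2 CPM use a prior count of 2. The precision of a level is set by library totals of 28949924 to 44166320 reads, and SE is that of the fitted log2 fold change. The stage score is the mean log2 CPM of 62 axis and recombination genes minus that of 48 pluripotency genes. Alternatives covered scaling, filters, DESeq2 1.42.0, robust edgeR, litter date, replicate number, stage and Gm23935 as terms, deposited TPM and leaving out libraries.

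The members and lists were chosen with earlier results of these data known. Named genes are Taf4b, up to 15 genes per direction with an assigned symbol, at least 5 CPM and the widest gap, up to 3 non-overlapping genes of at least 1 CPM per list of the 36 lists, and the 2 genes per direction nearest either side of the rule. Members of the lists of ribosome production, TRiC and leukocytes, other genes said to be chosen after their values were seen, those at the same place as a neighbour, and those singled out by DESeq2 or by stage fall outside that rule. Some genes that the rule took are not reported here.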

Additional observations from a re-analysis of the deposited data

Results flagged for a closer look

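In 9 of 100 groups of 4 libraries examined among the named genes and the stage score, 1 library lay further from the other 3 than Dixon's 95% critical value allows, a rule that flags about 1 group in 20 by chance. Deficient replicate 3 lay high for Dus4l (16.9 CPM, the others 14.3 to 14.7), Surf1 (24.5 CPM, the others 22.3 to 22.5) and Mrpl39 (108 CPM, the others 92.9 to 94.7), and low for Phf20 (145 CPM, the others 149.7 to 150.04). Deficient replicate 4 lay high for Nek3 (117 CPM, the others 101 to 103) and low for Pde5a (3.58 CPM, the others 4.38 to 4.53) and Zfp326 (28.7 CPM, the others 45.4 to 46.2). Heterozygous replicate 1 lay high for Sf3b5 (113 CPM, the others 88.9 to 91.1), and its stage score of -1.03 lay below the 1.41 to 1.87 of the other heterozygous libraries.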

How the results depend on the processing

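The fold changes of the 48 named genes besides Taf4b were computed under 27 other settings. None of the 1296 values changed sign, while 9 passed the threshold that the main test did not pass. Most of these genes were named because their groups were separated, so the kept signs are largely fixed by the choice and are no test. Taf4b was called in 18 of 27 alternatives, with adjusted p from 5.62e-19 to 0.847. Its log2 fold change was -1.64 with litter date as a term (adjusted p = 0.066), -1.64 with the level of Gm23935 (0.0506) and -1.65 without the 3 libraries low in Gm23935 (0.847), and the count of called genes was then 0 in each. DESeq2 called 8 genes, and 11 with the fertile libraries as 1 group. Leaving out each library in turn gave 0 to 1 called genes and log2 fold changes of Taf4b from -1.74 to -1.50.

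Non-overlap depends on how many libraries enter, since fewer libraries leave more genes apart. The count of higher genes was 306 with no filter, 672 against the heterozygous libraries alone, 995 without the 3 libraries low in Gm23935, and 184 to 423 with each library left out in turn. For lower genes it was 53 with a filter of 1 CPM in 4 libraries, 541 against the heterozygous libraries alone, 755 without those 3 libraries, and 116 to 292 with each library left out. With a gap of at least 0.25 in log2, 10 higher and 17 lower genes were left. The difference in stage score ran from -0.87 to -0.16 with each library left out. Heterozygous against wildtype called 0 genes with litter date as a term and 488 with DESeq2. The cause of these shifts was not tested.

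With the replicate number as a block, the comparison called 0 genes, Taf4b had a log2 fold change of -1.66 (adjusted p = 0.0522), and heterozygous against wildtype called 0. Of 8 same-number pairs, 1 had deviations that correlated above 0.1 (range -0.42 to 0.38). The deviations of the 2 wildtype libraries mirror each other, so these correlations cannot settle whether the numbers pair the samples. Depth limits genes under 1 CPM most, which were 83 of the 283.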
